A study of Mus musculus with 4 samples.

Results

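Chromatin modifiers and remodellers are the enzymes, subunits and partner proteins that write, erase and read marks on histones and DNA or that move nucleosomes. Here they were the genes whose symbol matched a fixed set of families, from histone deacetylases (Hdac, Sirt) and lysine demethylases (Kdm) to polycomb subunits, DNA methyltransferases, chromodomain remodellers (Chd) and nuclear receptor coregulators (Ncoa, Ncor). Of the 5807 genes listed in the comparison of pleural cavity with bone marrow eosinophils, 53 were such genes. All 53 are listed because the study had called them different between the tissues, so being listed is how they were chosen and is no result. A family member that is not listed has no value here and no direction. Eosinophils were sorted from wild-type (WT) mice, 6 to 8 weeks old, on day 2 after LLC cells, from a mouse lung carcinoma line, were put into the pleural space. Bone marrow eosinophils came from the marrow, and pleural cavity eosinophils from the pleural lavage fluid, of such tumour-bearing mice, with 2 libraries for each tissue. Both groups therefore carried the tumour, although the text of the study also calls the marrow cells naïve, and the labels do not say how many mice went into a library. The marrow was sorted on CD45, SiglecF and side scatter after enrichment on F4/80, while the pleural gate also required CD11b and F4/80 and left out CD11c-positive and Gr1-high cells.

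The data analysed were mean reads, the RSEM estimate of reads per gene, which the authors had averaged within each tissue. Mean reads of all listed genes summed to 15947438 in pleural cavity eosinophils and to 11762543 in those of the marrow, and since other genes are left out, these sums are not library depths. Levels are given below as reads per 1000000 listed reads (RPM), that is, mean reads scaled to these sums. The log2 ratio is the log2 of the pleural cavity level over the bone marrow level, with mean reads under a floor of 3 set to 3. A gene was called higher or lower where its log2 ratio was past 1 or -1. Each tissue has 1 mean, so the spread between replicates was not analysed here and no test was run: "higher" and "lower" describe these 2 means. Beside a ratio stands its 95% Clopper-Pearson interval with mean reads taken as counts, which covers counting error only. The scaling matters as much. Listed genes whose mean reads reached 1000 in each tissue left an empty interval from -0.47 to 0.18 on this scale, and other scalings moved every log2 ratio together by -0.44 to 0.44.

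Acetylation of histones loosens chromatin and is added by acetyltransferases and removed by deacetylases and sirtuins. Methyl groups on histone lysines and arginines mark active or silent chromatin according to the residue, and polycomb complexes place and read a silencing methyl mark. In blood cells these systems change as dividing progenitors become mature granulocytes, which no longer divide, and DNA methylation is copied at each division by Dnmt1.

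The sorted cells were first checked against marker genes. Ccr3, the eotaxin receptor, had 67556.5 mean reads in pleural cavity eosinophils against 17177.5 in bone marrow eosinophils. Siglecf, the surface lectin used in both gates, had 21371 and 7105.5. The granule genes Prg2 and Epx had 1482 and 341.5 in pleural cavity eosinophils against 555404 and 139062 in bone marrow eosinophils, so these granule markers were far lower in the pleural cells while Ccr3 and Siglecf were higher. Prg3, another granule gene, had 146.5 against 38176.5 mean reads, and Alox15, a lipoxygenase, 29945 against 79398 (log2 ratio -1.85, from reads that RSEM had divided). Gata1, a transcription factor of the lineage, had 7241 against 2477 (1.11). Of the 9 eosinophil markers looked for, Il5ra and Cebpe were not listed. The methods give the sorted cells a purity of over 99% and describe Wright-Giemsa staining of them. Genes of neutrophils and their precursors were also found in the marrow libraries. All 15 of that list were lower in pleural cavity eosinophils, and together they took 117814 RPM in bone marrow against 2302 in pleural cavity eosinophils, with the most marrow reads for Ngp (263228 against 546.5 in the pleural cavity). In the pleural cavity most of the sum came from Retnlg, with 33927 mean reads against 147022 in the marrow. All 19 proliferation genes were lower as well, with a sum of 395 against 4801 RPM and Mcm6, a subunit of the replicative helicase, as the gene with most reads in the marrow (1101 and 4831.5 mean reads). None of the genes in these 2 lists was at 0 in either tissue. Both lists thus move with every lower chromatin gene described below, and their part in those results was not tested. In such bulk samples, fewer cells of a type and less RNA per cell cannot be told apart. Among the other lists, 6 of 7 basophil and mast cell genes were listed, all lower (10.9 against 968 RPM). Of 11 macrophage and monocyte genes 7 were listed, 4 higher and 2 lower (6498 against 3403 RPM), with the most pleural reads for Adgre1, which encodes the F4/80 antigen of the pleural gate (73916.5 against 11406 mean reads). Without Adgre1 the order of the sums turned, to 1863 against 2433 RPM, of which Ly6c2 alone held 38.2 and 1879. Csf1r, C1qb and Marco were also higher, at 20627.5 against 3973.5, 5065 against 1093 and 754 against 67.5 mean reads, while Ly6c2, with 608 against 22102 (fractional), and Mrc1, with 250.5 against 445.5, were lower. Of 7 T and NK cell genes 3 were listed, all lower (9.97 against 903 RPM), led by Nkg7 (112 against 10432 mean reads). Ms4a1 was the sole B cell gene listed of 5, at 366 against 107 mean reads. Of 5 erythroid genes 2 were listed, both lower (0.0941 against 14.9 RPM). Of 5 epithelial genes that could mark tumour cells 2 were listed (121 against 53.8 RPM), Krt18 being higher with 1918 against 518 mean reads and Cdh1 lower with 5 against 114.5. The part of these lists in the results was not tested.

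**Figure D1:**
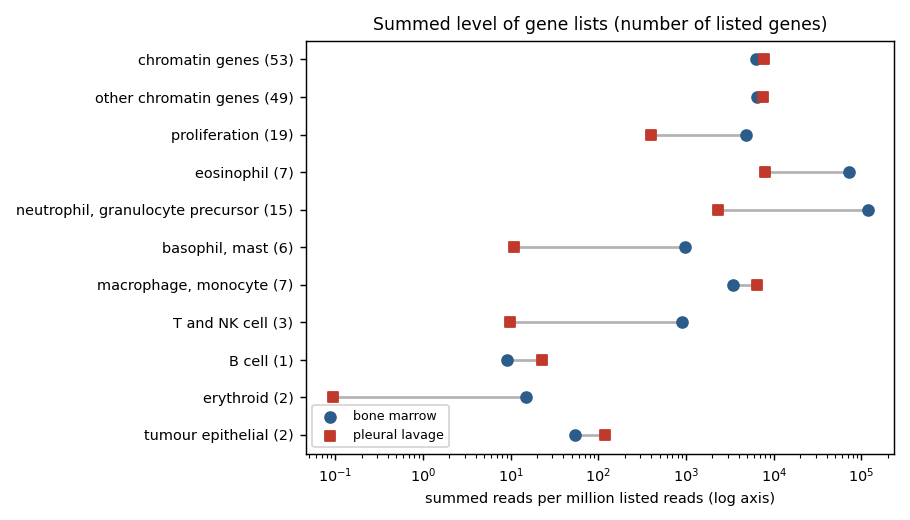
Summed RPM (log axis) for each gene list in bone marrow (circles) and pleural lavage eosinophils (squares), with the number of listed genes in parentheses. The proliferation list was at 395 in pleural lavage against 4801 in bone marrow and the neutrophil and granulocyte precursor list at 2302 against 117814.

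By its text, the study listed genes past a threshold on fold change as well as on significance. The empty interval is narrower than the span from -1 to 1, so no single scaling of the mean reads puts every listed gene past the threshold used here, and how the listing follows from these reads was not settled. Among the 53 chromatin genes, 9 were called higher and 15 lower in pleural cavity eosinophils, and 29 lay within the threshold. Among all listed genes, 16.0% were called higher and 50.5% lower. All 53 had at least 100 mean reads in one tissue or the other. Among the 4544 listed genes that did, 19.3% were called higher and 38.0% lower. The chromatin genes stood at 17.0% and 28.3%. These counts turn with the scaling. With mean reads unscaled, 19 chromatin genes were called higher and 9 lower, beside 37.8% and 28.6% of the 4544 genes. With the median of genes that reached 1000 mean reads in each tissue set to 0, 3 were higher and 23 lower, beside 10.4% and 46.6%. Which direction held more calls is therefore not settled by these means. The counts by role below, each of few genes, are to be read beside the same shares of listed genes. By the study's text, most listed genes were lower in the pleural cavity. That split is more uneven than the one here, where scaling to the listed sums left 2468 genes over 0 and 3339 under 0. Some listed genes over 0 here are therefore lower in the study's comparison, and which chromatin genes these include was not examined. The median log2 ratio was 0.38 over the chromatin genes and -1.02 over all listed genes, but 0.33 over the listed genes with at least 100 mean reads, so the distance from all listed genes went with the many listed genes of few reads. In mean reads, chromatin genes ran from 1 for Asxl3 to 19688 for Ncoa3, both in pleural cavity eosinophils. Summed, they took 7686 RPM in the pleural cavity against 6241 in the marrow, a log2 ratio of 0.30. Ncoa3 alone made up 16.1% of that sum in the pleural cavity and 5.73% in the marrow, and without it the sums were 6451 and 5884. Over the 5 scalings the log2 ratio of the sums ran from -0.14 to 0.74, so the direction of the total rests on the scaling. The plot of levels shows both directions within most families.

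**Figure D2:**
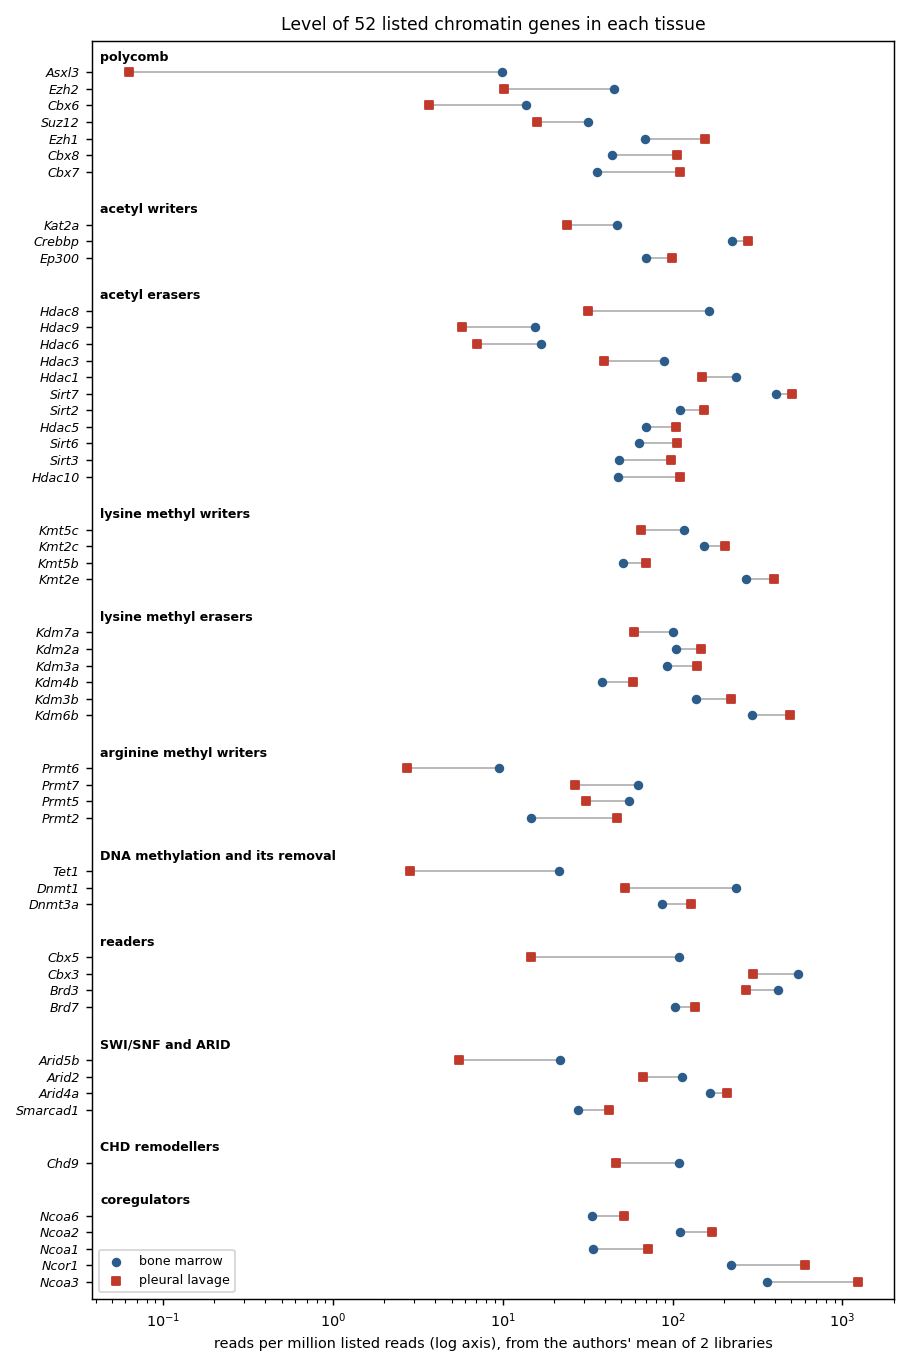
Level of 52 of the 53 listed chromatin genes in RPM (log axis) in bone marrow (circles) and pleural lavage eosinophils (squares), grouped by role. The longest line is that of Asxl3, with 1 mean read in pleural lavage, and Ncoa3 has the highest level in pleural lavage eosinophils.

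Polycomb genes were split, with 3 of 7 called higher and 4 lower, or 1 higher (Cbx7) and 4 lower under the median scaling and 3 and 3 unscaled. Ezh1 and Ezh2 encode the alternative catalytic subunits of polycomb repressive complex PRC2, Ezh2 being typical of dividing and Ezh1 of resting cells. Ezh2 (chr6:47530139-47595341, minus strand, GRCm38) had 161.5 mean reads in the pleural cavity against 531 in the marrow, a log2 ratio of -2.16 (interval -2.42 to -1.90). Ezh1 (chr11:101191115-101226463, minus strand) went the other way, with 2475.5 against 811 mean reads and a log2 ratio of 1.17 (1.06 to 1.29). Suz12, a core subunit of the same complex, was just past the threshold at -1.005, with 252 and 373 mean reads.

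The ratio of Ezh1 to Ezh2 within a tissue does not depend on scaling. Per kilobase of the longest transcript it was 1.01 in bone marrow and 10.2 in pleural cavity eosinophils. By that measure the pair was level in the marrow and Ezh1 led in the pleural cavity. In reads alone the ratio was 1.53 in bone marrow and 15.3 in pleural cavity eosinophils. This shift of 3.33 on the log2 scale (counting interval 3.05 to 3.61) was the widest of the 7 related pairs that were listed out of 38 looked for. Cbx7 and Cbx8, chromodomain subunits of PRC1 that bind the polycomb mark, were higher. Cbx7 had 1759.5 and 420.5 mean reads (log2 ratio 1.63) and Cbx8 1690 and 514 (1.28). Their relative Cbx6 was lower, at 58.5 against 161 mean reads (-1.90). Asxl3, a partner of the histone deubiquitinase Bap1, rested on the fewest reads, 1 against 116, a log2 ratio of -7.30 without the floor with a counting interval of -12.61 to -4.79.

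Of the 3 DNA methylation genes, Tet1 and Dnmt1 were called lower and Dnmt3a stayed within the threshold. Unscaled, Dnmt3a was past 1, at 1.02. Dnmt1, which copies methylation onto the new strand after replication, had 841.5 mean reads in the pleural cavity against 2788.5 in the marrow, a log2 ratio of -2.17 (-2.28 to -2.06). Dnmt3a, which sets methylation on unmethylated DNA, had 2059 and 1014 mean reads, some of them fractional, with a log2 ratio of 0.58. Per kilobase, Dnmt3a stood at 0.220 of Dnmt1 in bone marrow and at 1.48 times Dnmt1 in pleural cavity eosinophils, so the order of the pair was reversed. Tet1, which oxidises methylcytosine, was lower at 45.5 against 251.5 mean reads (-2.91). Uhrf1, which brings Dnmt1 to replicated DNA and belongs to the wider list of chromatin genes, had 80.5 and 2618 mean reads (-5.46).

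**Figure D3:**
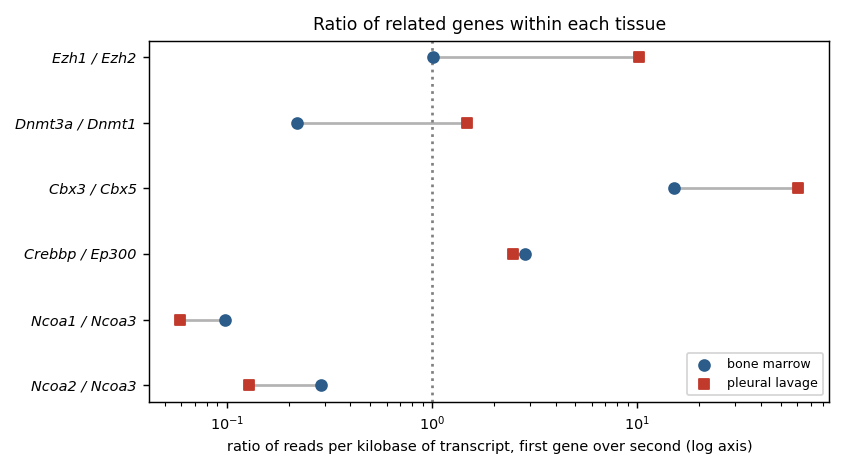
For 6 of the 7 pairs, the ratio of reads per kilobase of transcript between 2 related genes in bone marrow (circles) and pleural lavage eosinophils (squares) on a log axis, where 1 means equal levels. Ezh1 over Ezh2 moved from 1.01 to 10.2 and Dnmt3a over Dnmt1 from 0.220 to 1.48, while Crebbp over Ep300 stayed close, at 2.83 and 2.48.

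Promoters were found for 13 of the 15 genes called lower. Shown are those of the 3 among them that hold letters of the E2F binding motif (Ezh2, Dnmt1 and Suz12), chosen for that match, with Cbx5 as 1 of the 10 that hold none and Ezh1 as a gene called higher, as RefSeq gives them for GRCm38.p6, from 250 bases before to 50 after the start site, 5′ to 3′ on the strand of the gene. Capitals mark exact matches to TTTGGCGC or TTTCCCGC, the E2F letters, searched on both strands, neither of which contains the other. Close variants of these letters were not searched, so a window without them may still hold a variant. E2F factors switch on genes of the S phase. The windows are chr6:47594981-47595280 (minus) for Ezh2, chr9:20952574-20952873 (minus) for Dnmt1, chr11:79992856-79993155 (plus) for Suz12, chr15:103239803-103240102 (minus) for Cbx5 and chr11:101226414-101226713 (minus) for Ezh1.
Ezh2: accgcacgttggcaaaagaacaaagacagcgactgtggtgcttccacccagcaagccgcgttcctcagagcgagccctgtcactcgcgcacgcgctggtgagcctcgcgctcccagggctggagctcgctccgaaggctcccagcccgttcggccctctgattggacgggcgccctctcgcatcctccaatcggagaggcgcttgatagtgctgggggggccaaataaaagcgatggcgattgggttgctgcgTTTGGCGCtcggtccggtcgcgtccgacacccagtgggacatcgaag
Dnmt1: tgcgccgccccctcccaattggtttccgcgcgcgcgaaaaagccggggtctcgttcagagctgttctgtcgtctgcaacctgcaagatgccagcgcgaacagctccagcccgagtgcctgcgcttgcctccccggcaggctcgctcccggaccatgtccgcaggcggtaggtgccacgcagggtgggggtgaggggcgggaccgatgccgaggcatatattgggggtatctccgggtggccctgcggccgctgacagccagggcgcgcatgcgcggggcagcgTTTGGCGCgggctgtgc
Suz12: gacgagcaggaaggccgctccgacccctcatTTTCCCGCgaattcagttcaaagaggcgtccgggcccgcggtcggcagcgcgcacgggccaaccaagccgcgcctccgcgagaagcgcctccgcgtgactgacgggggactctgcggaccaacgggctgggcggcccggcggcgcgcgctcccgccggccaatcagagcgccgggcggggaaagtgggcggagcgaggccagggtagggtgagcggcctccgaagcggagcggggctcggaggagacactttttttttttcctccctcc
Cbx5: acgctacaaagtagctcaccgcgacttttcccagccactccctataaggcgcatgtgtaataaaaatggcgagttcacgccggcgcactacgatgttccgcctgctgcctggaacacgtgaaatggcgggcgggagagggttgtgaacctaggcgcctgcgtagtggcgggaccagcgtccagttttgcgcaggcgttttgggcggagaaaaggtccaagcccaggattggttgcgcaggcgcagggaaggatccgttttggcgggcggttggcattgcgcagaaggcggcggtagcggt
Ezh1: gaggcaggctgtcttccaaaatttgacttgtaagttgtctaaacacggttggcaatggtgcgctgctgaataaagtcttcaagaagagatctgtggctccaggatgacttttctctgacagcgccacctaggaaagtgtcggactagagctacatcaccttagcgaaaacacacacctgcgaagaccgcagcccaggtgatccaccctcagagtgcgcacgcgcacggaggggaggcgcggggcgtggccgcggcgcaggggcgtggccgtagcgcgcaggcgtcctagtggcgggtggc

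In these windows the match began at base 254 for Ezh2, at base 284 for Dnmt1 and at base 32 for Suz12, counted from 1 at the 5′ end, and Cbx5 and Ezh1 held none. Dnmt1 has 3 windows in the table, and 1 of them held the letters. Promoters were found for 39 of the 53 genes. Either set of letters occurred in 6 of the 39, namely Ezh2, Suz12, Kmt5c, Dnmt1, Cbx3 and Brd7. By call, 3 of 13 genes called lower and 0 of 7 called higher held them, and Kmt5c, Cbx3 and Brd7 lay within the threshold. The letters were found in 1.80% of the 27025 genes with a promoter in the table and in 3.27% of the listed ones. Among listed genes with at least 100 mean reads, the share was 5.19% of the 1406 called lower and 2.003% of the 699 called higher. Of the proliferation list, 4 of 17 held them, all Mcm genes. Letters for other factors were also counted in the 39 genes. The ETS letters CCGGAAGT occurred in 2 of them, in 4.31% of all genes with a promoter and in 6.53% of the listed ones. The E-box CACGTG occurred in 5, in 8.09% of all and 11.3% of listed genes, and the CRE letters TGACGTCA in 1, in 2.03% of all and 2.996% of listed genes. The AP-1 letters TGANTCA occurred in 2, in 8.97% of all and 7.77% of listed genes, and the GATA letters AGATAA in 1, in 12.7% of all and 9.72% of listed genes. The SP/KLF letters GGGGCGGGG occurred in 10, in 12.9% of all and 22.2% of listed genes. Longer letters for NRF1, interferon response, NF-kB and YY1 elements occurred in 2, 2, 0 and 1 of the 39, beside 1.63%, 4.45%, 0.663% and 1.07% of listed genes and 1.07%, 3.99%, 0.466% and 0.755% of all. A match of letters is a description and not a binding site.

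Deacetylases and sirtuins also went both ways, with 2 of 11 called higher and 4 lower. Unscaled, 4 were higher and 1 lower, and under the median scaling 0 and 5. Hdac8, a class I deacetylase, differed most, with 509 mean reads in the pleural cavity against 1934 in the marrow (log2 ratio -2.37, interval -2.51 to -2.22), but its reads were fractional, as RSEM gives where reads may belong to more than one gene. Hdac3, the catalytic subunit of the NCoR corepressor complex, had 631.5 and 1054 mean reads (-1.18). Hdac1, the enzyme of the NuRD and Sin3 complexes, stayed within the threshold at 2367 and 2777.5 (-0.67). All 3 class I members listed were thus on the lower side. Hdac6, a deacetylase of tubulin, was lower at 113 against 196.5 mean reads (-1.24), and Hdac9, of class IIa, at 92.2 against 182 (-1.42, fractional). On the higher side, Hdac10, a deacetylase of polyamines, had 1762.5 and 564.5 mean reads (1.203). Sirt3, which acts in mitochondria, had 1570.5 and 570.5 (1.02), just past the threshold. The 4 sirtuins listed, NAD-dependent enzymes, all had a log2 ratio over 0, from 0.31 for Sirt7 over 0.48 for Sirt2 and 0.75 for Sirt6 to that of Sirt3. Hdac5, of class IIa, had 1677.5 and 818.5 mean reads (0.60). Sirt7, a nuclear sirtuin of the nucleolus, had the most reads of this group, with 8068 and 4810 mean reads, and its ratio turned to -0.14 when the median of the genes that reached 1000 mean reads in each tissue was set to 0.

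The 3 acetyltransferases stayed within the threshold. Crebbp and Ep300, the paired coactivators that acetylate enhancers, had 4415.5 and 1572 mean reads in pleural cavity against 2615 and 816 in bone marrow eosinophils, with log2 ratios of 0.32 and 0.51. Kat2a, the acetyltransferase of the SAGA complex, was just inside the threshold on the lower side at 382.5 against 552 (-0.97), and it passed the threshold under 2 of the other scalings, at -1.08 and -1.41. The ratio of Crebbp to Ep300 per kilobase was 2.83 in bone marrow and 2.48 in pleural cavity eosinophils, the narrowest shift of the 7 pairs.

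The genes grouped by symbol as lysine methyltransferases and demethylases all stayed within the threshold, 4 and 6 in number. Unscaled, 4 of the 6 demethylases (Kdm6b, Kdm3b, Kdm4b and Kdm3a) were past 1, and under the median scaling Kmt5c and Kdm7a were past -1. Among the genes grouped as writers, a role given by symbol and not by known activity, Kmt2e had the most reads, with 6296 and 3177 (0.55, fractional). Kmt2c, an enhancer methyltransferase, had 3262 and 1796 mean reads (0.42). Kmt5b and Kmt5c share the task of adding further methyl groups to histone H4, and they differed in sign, at 0.45 (fractional reads) and -0.84. Among the erasers, 5 of 6 had a log2 ratio over 0. Kdm6b, a demethylase that removes the polycomb mark and is induced in activated myeloid cells, had the most reads, 7879 against 3472 (0.74, interval 0.69 to 0.80). Kdm3b and Kdm3a, demethylases of the heterochromatin mark, had ratios of 0.69 and 0.58, and Kdm2a 0.48. Kdm4b reached 0.60 with fractional reads. The exception was Kdm7a with 946 and 1184 mean reads (-0.76, fractional).

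Of the 4 arginine methyltransferases, 2 were called lower and 1 higher. Unscaled, 1 was lower and 1 higher, and under the median scaling 3 and 1. Prmt6 had 43.5 against 111.5 mean reads (-1.80) and Prmt7 424.5 against 733.5 (-1.23). Prmt5, the main enzyme of symmetric arginine methylation, stayed within the threshold at 491.5 against 648 (-0.84). Prmt2, a relative with weak activity that binds nuclear receptors, was higher at 754.5 against 171.5 (log2 ratio 1.70, interval 1.46 to 1.95). Per kilobase its level was 22.5 RPM in the pleural cavity and 6.94 in the marrow.

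Among readers, the heterochromatin proteins Cbx5 (HP1 alpha) and Cbx3 (HP1 gamma) were both on the lower side. Cbx5 had 233 and 1277 mean reads (-2.89, fractional), and Cbx3 4730.5 and 6419.5 (-0.88). Cbx3 exceeded Cbx5 per kilobase by 15.1 times in bone marrow and 61.1 times in pleural cavity eosinophils. Brd3, which binds acetylated histones, had 4299 and 4924.5 mean reads (-0.64), within the threshold. Under the median scaling, Cbx3 and Brd3 were past -1, at -1.32 and -1.08. Brd7, a subunit of the PBAF remodeller, had 2163.5 and 1213.5 mean reads (0.40).

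Few remodellers were listed. Arid5b, a DNA-binding partner of the demethylase Phf2, was lower at 88 against 254 mean reads (-1.97). Arid2, the defining subunit of PBAF, had 1061.5 and 1338 (-0.77), and Arid4a, of the Sin3 complex, 3316 and 1951 (0.33). Smarcad1 was the sole Smarc gene listed, with 677 and 327 mean reads (0.61, fractional). Chd9 was the sole Chd gene listed and was lower, at 739 against 1286 (-1.24, fractional). Unscaled, Chd9 lay within the threshold at -0.80 and Smarcad1 was past 1 at 1.05. Under the median scaling, Arid2 was past -1 at -1.22. The catalytic subunits of SWI/SNF, Smarca2 and Smarca4, were not among the listed genes, which gives them no direction.

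Coregulators of nuclear receptors were the one role with all members on the higher side, 3 of 5 past the threshold. Unscaled, all 5 were past it, and under the median scaling Ncoa3 alone. Ncoa3 (chr2, plus strand), a p160 coactivator, had 19688 mean reads in the pleural cavity against 4210 in the marrow, 1235 and 358 RPM, with a log2 ratio of 1.79 (interval 1.74 to 1.83). Ncor1, the corepressor that carries Hdac3, had 9566 and 2611 mean reads (1.43). Both had fractional reads, so part of their reads may be shared with similar genes. Ncoa1, another p160 coactivator, had 1137 and 402.5 without fractional reads (1.06). Ncoa2 and Ncoa6 stayed within the threshold at 0.63 (fractional) and 0.61. Ncoa3 led its relatives further in the pleural cavity, since Ncoa2 stood at 0.286 of Ncoa3 per kilobase in bone marrow and at 0.128 in pleural cavity eosinophils, and Ncoa1 at 0.0982 and 0.0593. Corepressor and enzyme thus differed in sign, Ncor1 being higher and Hdac3 lower.

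**Figure D4:**
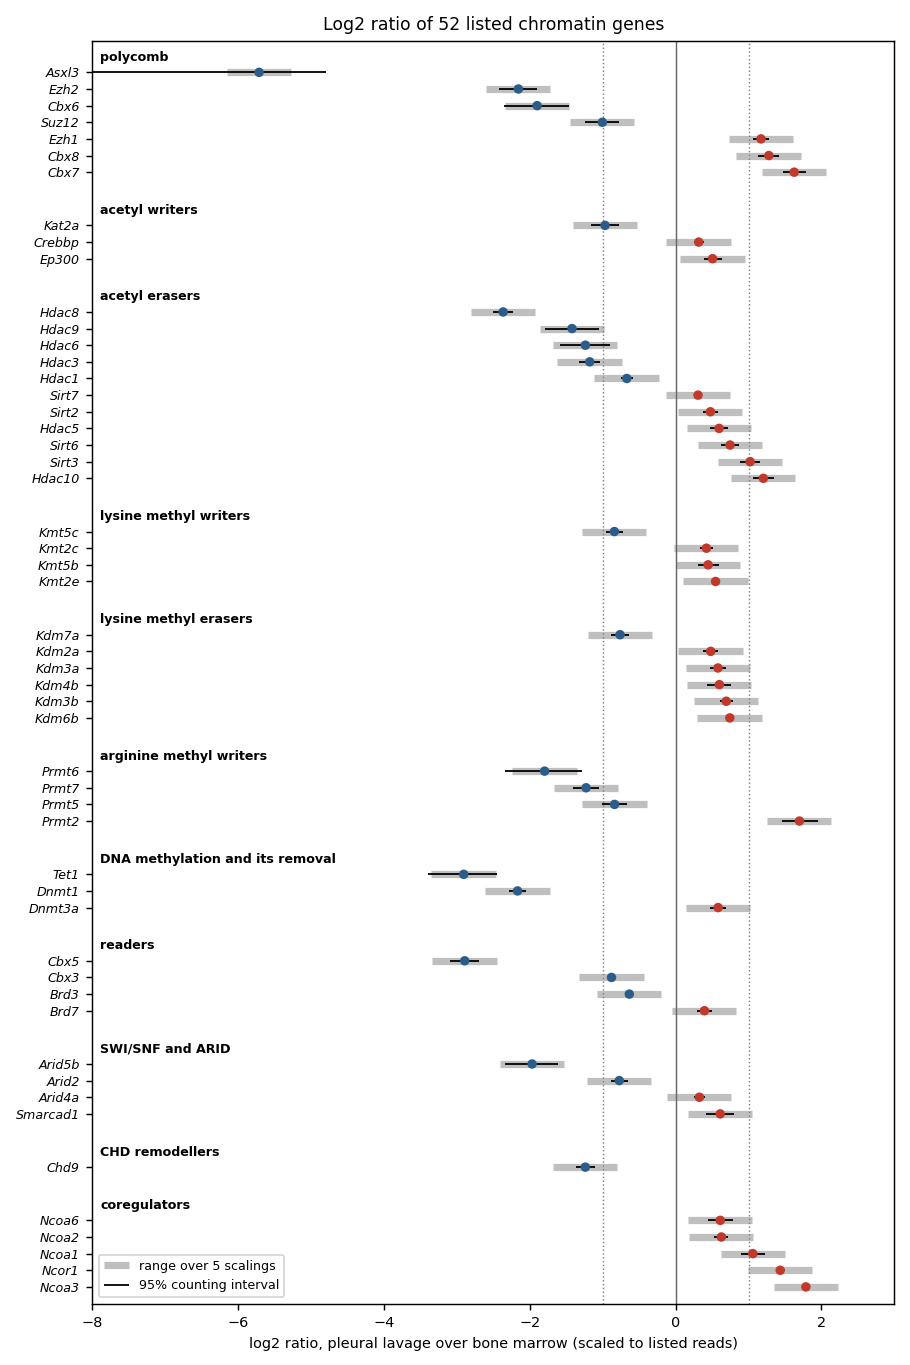
Log2 ratio of 52 of the 53 chromatin genes, pleural lavage over bone marrow (points), with the 95% counting interval (thin line, leaving the axis on the left for Asxl3, where it reaches -12.61) and the range over 5 scalings (grey bar). Dotted lines mark ratios of -1 and 1, and the grey bars of 9 genes lie wholly under -1 and those of 3 wholly above 1.

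Ranks among all listed genes do not depend on scaling. Of the 53 genes, 12 stood above percentile 75 of listed genes by log2 ratio, with a median percentile of 61.6 among all listed genes, many of which have few reads and are lower. Ncoa3 was at percentile 93.7, Prmt2 at 93.1 and Cbx7 at 92.5, the upper end. Asxl3 at 3.02 and Tet1 at 24.8 were the lower end. Of the 1524 listed genes that reached 1000 mean reads in each tissue, 16.9% were called higher and 13.2% lower. Among them were 21 chromatin genes, of which Ncoa3 and Ncor1 were called higher and 0 lower, and whose median percentile among those genes was 48.0, but such a minimum in each tissue removes genes that are low in one of them. The plot of all listed genes shows where the chromatin genes lie.

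**Figure D5:**
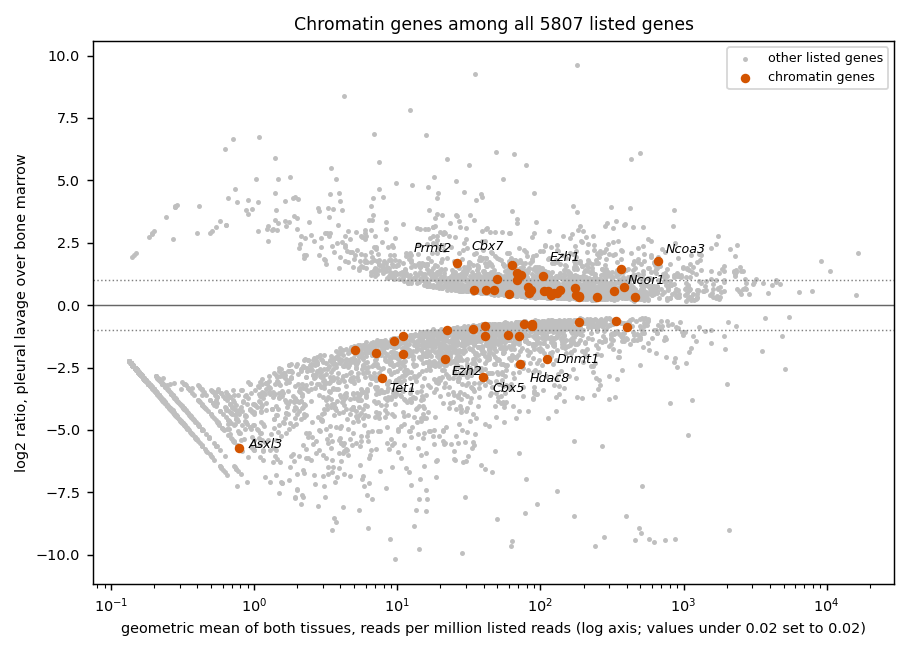
Log2 ratio of pleural lavage over bone marrow against the geometric mean level of both tissues in RPM (log axis) for all 5807 listed genes (grey) and the 53 chromatin genes (orange). Chromatin genes follow the 2 bands of listed genes, with Ncoa3 at 1.79 as the highest and Asxl3 at -5.71, set by the floor, as the lowest.

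The wider list of chromatin genes outside these families held 165 genes, of which 49 were listed, 2 called higher and 22 lower, beside the 16.0% higher and 50.5% lower among all listed genes. Of the 46 with at least 100 mean reads in a tissue, 4.35% were higher and 41.3% lower, beside 19.3% and 38.0% of the listed genes with as many reads. The counts by group that follow describe few genes each. In the group for polycomb and heterochromatin, 7 of 12 listed genes were lower and 0 higher. Besides Uhrf1, Suv39h1, which writes the heterochromatin mark read by Cbx5, had 408 and 1085 mean reads (-1.85). Of the trithorax group 4 of 7 were lower. Nsd3, the methyltransferase with most reads in that group, had 6774.5 and 2845.5 mean reads (0.81), and Nsd2, a relative, 480.5 and 930.5 (-1.39). In the NuRD, Sin3 and CoREST group 2 of 9 were lower, one of them Rbbp7, a histone-binding subunit shared with PRC2, at 1115 and 2835 (-1.79, fractional). Among acetyl writers and readers 2 of 8 were lower, Hat1, which acetylates new histones, being at 621.5 and 1106 (-1.27), while 1, Jade2, was higher. Remodellers and histone chaperones had 7 of 13 lower. Ssrp1, a subunit of the FACT chaperone, had 1480.5 and 3298 mean reads (-1.59), and Chaf1a and Asf1b, which deposit histones behind the replication fork, had ratios of -5.34 and -4.77. Padi4, the histone citrullinating enzyme of granulocytes, was the one higher gene in that group, at 60744 and 16657 mean reads (1.43, fractional).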

How the data were processed

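RNA of sorted eosinophils gave 2 libraries for each of both tissues, grouped here by sample title. According to the methods, the authors trimmed reads with SOAPnuke, aligned them to GRCm38 with HISAT2 2.1.0, used Bowtie2 2.2.5 for transcripts and estimated reads with RSEM 1.2.8. The deposited values are expected counts that the authors averaged within each tissue without scaling for depth, and the table lists genes called different with DESeq2. Its log2 ratios, p-values and q-values are the study's own comparison and were not used. The number of unused columns per sample was 0. Depth per library is therefore unknown, and the planned tests on counts gave way to a description of means.

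Mean reads were scaled to the sum of listed genes, with a floor of 3 mean reads and a threshold of 1 on the log2 scale. Fractional reads are means that are neither whole numbers nor midway between 2 of them (13 of 53 genes, 25.8% of listed genes). Intervals are 95% Clopper-Pearson for single genes and a normal approximation on the log scale for pairs. The ratio and interval were tested on simulated data with known folds. Those data held counting error alone and their depth was given, so scaling and the spread between replicates were not tested. The genes, lists and tests were chosen with earlier results of these data known. Named genes were up to 15 genes past the threshold in each direction with at least 50 mean reads in a tissue, the 3 with most reads of each of 11 roles, fixed related pairs and up to 5 genes with most reads of each other list. Those named outside this rule, namely Hdac5, Sirt6, Kdm3a, Kdm4b, Kdm7a, Kmt5b, Ncoa6, Brd7, and several genes of the wider lists, were chosen after their values were seen. Locations and the longest transcript of each gene came from GENCODE M21 on GRCm38, an earlier release than the authors', where all 53 genes matched. The values of 1 chromatin gene, of its pair and of 1 marker gene are not reported here, though they count in the totals. Alternatives covered scaling, threshold, low reads, pseudocount and fractional reads. Scripts used scipy 1.17.1, numpy 2.4.6, pandas 2.3.3 and matplotlib 3.10.9 under Python 3.11.15.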

Additional observations from a re-analysis of the deposited data

How the results depend on the processing

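No paired analysis was possible because the deposited columns are means over the libraries of a tissue and carry no replicate number, and for the same reason no library could be left out. With mean reads unscaled, 19 chromatin genes were called higher and 9 lower, and 2 in place of 7 of the 11 roles had more lower than higher calls. With the median of genes that reached 1000 mean reads in each tissue set to 0, 3 were higher and 23 lower, and 10 roles had more lower than higher calls. Dropping the 100 genes with most reads from the sum gave 7 higher and 16 lower, with 8 such roles. Centring the empty interval, chosen after seeing the data, gave 9 and 14, with 6 such roles. Across the 5 scalings, Cbx7, Prmt2 and Ncoa3 stayed higher, and Asxl3, Ezh2, Cbx6, Hdac8, Prmt6, Tet1, Dnmt1, Cbx5 and Arid5b stayed lower. The sign changed for 6 genes, among them Crebbp, Sirt7, Kmt2c, Brd7 and Arid4a, each under the median scaling alone. A threshold of 2 left 0 higher and 6 lower, and one of 0.5 gave 21 and 23. Requiring 1000 mean reads in each tissue, added after seeing the data, left 2 and 0. The log2 ratio of the summed levels, 0.30 as reported, was 0.19 without the 100 top genes in the scaling and 0.12 per kilobase and, added after seeing the data, 0.74 unscaled, -0.14 with the median set to 0 and 0.44 with the empty interval centred. Of the pairs, 5 were shifted past 1, and 2 without fractional reads, among them Ezh1 with Ezh2. The other filters on low reads, the pseudocount and leaving out fractional reads changed the number of called genes by less than 1.5 times.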

Other observations

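Transcript length, which neither the choice of genes nor the calls used, showed little relation to the log2 ratio. Across the 53 chromatin genes, Spearman's rho between the longest transcript and the log2 ratio was -0.08, and across the 4463 listed genes with a known length and at least 100 mean reads in a tissue it was 0.03, genes within 1 comparison not being independent. Genes called higher had a median length of 4207 bases and those called lower 5870, against 3227 and 3189 for listed genes with as many reads. Their promoter windows were richer in CpG than those of all genes in the table, with a median of 25 per 300 bases over the 39 genes found and 8 over all. No such median was taken over the listed genes, so whether this sets the chromatin genes apart from other listed genes was not tested. The genes were spread over 19 chromosomes, 8 of them on chromosome 11.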
